A study of Mus musculus with 9 samples.

Results

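The epithelial alarmins are cytokines that the epidermis and other barrier tissue release on damage. Their transcripts and those of their receptors were examined as 6 genes, Il33, Tslp, Il25, Il1rl1, Crlf2 and Il7r, chosen by symbol among transcript clusters that the platform annotation pairs with a single gene. Of the 6 genes, 5 had such a cluster, 1 each, among 30142 genes measured. Il1rl1, which encodes ST2, the receptor chain for interleukin 33, was not matched by symbol or gene ID and was not analysed here.

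Neck skin of male C57BL/6 mice aged 6 to 8 weeks was hybridised as whole tissue to 9 Affymetrix mouse arrays, 3 per group, which the labels call biological replicates. Mice of the urushiol group and of the oxazolone group were sensitised on the shaved abdomen with the allergen at 2.0% and, 5 days later, challenged on the shaved nape with the same allergen at 0.5% in 40 µl acetone. Challenges numbered 5, on days 0, 2, 4, 6 and 8, with skin collected 4 hours later. Urushiol is the oily allergen of poison ivy, and oxazolone is a synthetic hapten, a small molecule that binds skin proteins. Control skin is labelled healthy, and the sources used here do not say whether it was shaved or received acetone. The mice are inbred and carry no labelled genetic change. By its title the study asked how immune responses and itch differ between these 2 models of allergic contact dermatitis. Alarmins are known to stimulate type 2 immunity and, for TSLP among others, sensory neurons.

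Interleukin 33 is a member of the interleukin 1 family that is stored in the nucleus of keratinocytes, endothelial cells and fibroblasts and is released when they are damaged. It binds ST2 paired with the accessory chain encoded by Il1rap, and the receptor signals through the adaptor MyD88 and the ligase TRAF6. TSLP is made by keratinocytes and binds a receptor of 2 chains, CRLF2 and the interleukin 7 receptor alpha chain encoded by Il7r, which signal through Janus kinases and STAT5. The Il7r chain also pairs with the common gamma chain to form the receptor for interleukin 7 on T cells and innate lymphocytes. Interleukin 25 is a member of the interleukin 17 family that binds IL-17RB paired with IL-17RA. Mast cells, group 2 innate lymphoid cells (ILC2), T helper 2 cells and dendritic cells are known responders to these cytokines.

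The sequences around the annotated transcription starts are shown for Il33, Il7r and Crlf2, from RefSeq's promoter table (GRCm38.p6). They set the gene with the greatest difference beside the 2 chains of the TSLP receptor, whose differences were smaller. Windows on the chromosome of Tslp were left out of the display, so the absence of Tslp here is no result, and RefSeq's table held none for Il25. Each window runs from 250 bases before to 50 bases after a start. Il33 has 2 annotated starts, 20677 bases apart, and the 1 value of its cluster does not tell them apart. Capitals mark matches, on either strand, to AP-1 (TGANTCA), a STAT site (TTCNNNGAA), the TATA box (TATAAA), the GC box (GGGCGG) and the NF-kB consensus, the last given by name alone.
Il33 start 1, chr19:29924863-29925162, plus strand: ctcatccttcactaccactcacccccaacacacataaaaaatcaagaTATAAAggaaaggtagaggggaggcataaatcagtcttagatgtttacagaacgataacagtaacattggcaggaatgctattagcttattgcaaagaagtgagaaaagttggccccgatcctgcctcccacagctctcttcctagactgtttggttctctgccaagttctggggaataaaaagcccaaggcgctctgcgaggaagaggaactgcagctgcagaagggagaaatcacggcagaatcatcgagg
Il33 start 2, chr19:29945540-29945839, plus strand: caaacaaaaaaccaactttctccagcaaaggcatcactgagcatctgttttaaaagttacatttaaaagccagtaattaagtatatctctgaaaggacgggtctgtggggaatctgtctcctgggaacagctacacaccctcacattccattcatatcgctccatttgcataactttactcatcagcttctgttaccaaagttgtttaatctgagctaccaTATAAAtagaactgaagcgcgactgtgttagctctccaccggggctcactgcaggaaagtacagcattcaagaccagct
Il7r, chr15:9529827-9530126, minus strand: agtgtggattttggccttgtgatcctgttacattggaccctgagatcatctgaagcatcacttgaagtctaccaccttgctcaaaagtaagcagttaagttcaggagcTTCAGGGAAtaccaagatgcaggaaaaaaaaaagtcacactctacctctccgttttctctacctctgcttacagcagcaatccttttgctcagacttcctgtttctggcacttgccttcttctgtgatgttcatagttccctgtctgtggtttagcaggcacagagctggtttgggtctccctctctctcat
Crlf2, chr5:109558944-109559243, minus strand: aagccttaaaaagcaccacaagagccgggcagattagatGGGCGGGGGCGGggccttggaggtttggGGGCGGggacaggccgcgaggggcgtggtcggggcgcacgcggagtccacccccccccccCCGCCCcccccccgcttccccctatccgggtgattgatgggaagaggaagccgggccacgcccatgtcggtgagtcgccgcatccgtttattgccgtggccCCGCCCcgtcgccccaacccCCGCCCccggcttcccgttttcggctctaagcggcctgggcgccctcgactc

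The second Il33 window holds a TATA box at position -29 from its start, and the first holds one at position -203, where 13.6% of all 32851 windows of the same length hold 1 or more. The Il7r window holds a STAT match at position -142, a motif found in 8.3% of windows. The Crlf2 window differs in composition. It is 71.7% G and C, against 46.3% and 42.3% in the Il33 windows, 45.7% in the Il7r window and a median of 52.7% over all windows, and it holds 6 matches to the GC box, which 35.7% of windows contain. No AP-1 match (7.81% of windows) or NF-kB match (8.46%) lay in these 4 windows, which says only that those letters are not there.

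Il33 rose in both forms of dermatitis and was the most raised of the 5 genes. Its log2 expression value was 15.77, 14.82 and 15.33 on urushiol arrays 1 to 3, 15.01, 14.48 and 15.21 on oxazolone arrays 1 to 3, and 11.08, 10.51 and 11 on control arrays 1 to 3. Every challenged array lay above every control array, and the urushiol and oxazolone ranges overlapped. The difference from control skin was 4.44 ± 0.295 log2 units for urushiol and 4.04 ± 0.295 for oxazolone (standard error, n = 3 arrays per group), with adjusted p = 0.000521 and 0.000698 by limma. Here and below, p values are two-sided and adjusted by Benjamini-Hochberg over all 30142 genes, a call is an adjusted p under 0.05, and ± is the standard error of a difference with 3 arrays per group. Both calls held under all 19 alternatives run, with adjusted p up to 0.00545 and 0.00619. Of all genes called, 83 had a difference at least as high as that of Il33 in urushiol skin and 132 in oxazolone skin. The direct comparison gave 0.41 ± 0.295 for urushiol minus oxazolone (95% confidence interval -0.29 to 1.10, adjusted p = 0.984), so none was detected in that fit. Between same-numbered arrays urushiol exceeded oxazolone by 0.76, 0.34 and 0.12, in 3 of 3, and with the replicate number as a block the adjusted p was 0.579 over 9 arrays and 0.616 over the 6 challenged ones.

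Tslp rose in urushiol skin. It stood at 8.71, 10.56 and 8.41 on urushiol arrays 1 to 3, at 6.88, 6.19 and 6.67 on oxazolone arrays 1 to 3, and at 6.30, 6.12 and 6.21 on control arrays 1 to 3. The urushiol arrays lay above all others, with array 2 the highest, and the oxazolone and control ranges overlapped, though oxazolone arrays 1 and 3 were above every control. The mean of 9.23 ± 1.16 in urushiol skin (SD, n = 3) had a spread wider than that of 0.354 in oxazolone and 0.09 in control skin. Urushiol minus control was 3.02 ± 0.53 (adjusted p = 0.012) and oxazolone minus control 0.37 ± 0.53 (95% confidence interval -0.87 to 1.61, adjusted p = 0.66). Without urushiol array 2 the difference from control was 2.35 with an adjusted p = 0.00357. The urushiol call was lost when only the 2 groups compared were fitted (adjusted p = 0.0542).

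For Tslp the 2 allergens differed by 2.65 ± 0.53 (95% confidence interval 1.41 to 3.89, unadjusted p = 0.00142), and all 3 urushiol arrays lay above all 3 oxazolone arrays. Over all genes this did not pass by limma (adjusted p = 0.276, range 0.163 to 0.537 over 20 alternatives). That comparison called 5 of 30142 genes, or 0.0166%, of which 0.00664% were higher and 0.00995% lower, while the arrays of the 2 groups did not overlap for 9.74%. With the replicate block it called 0 genes by limma, and Tslp was at adjusted p = 0.393 over 9 arrays and 0.505 over 6. With 3 arrays a side, exact permutation p values go no lower than 0.1. The second urushiol array had the highest Tslp value of its group and the lowest Il33 and Il7r values.

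Il25 showed no detectable difference. It was 4.41, 4.32 and 4.32 on the urushiol arrays, 4.35, 4.33 and 4.32 on the oxazolone arrays, and 4.32, 4.32 and 4.22 on the control arrays. All 9 values lay below the median of all clusters on their array, which was 5.53 to 5.64, and the files hold no detection calls, so whether Il25 was measured above background is unknown. Urushiol minus control was 0.06 ± 0.04 (adjusted p = 0.381) and oxazolone minus control 0.05 ± 0.04 (adjusted p = 0.498).

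**Figure D1:**
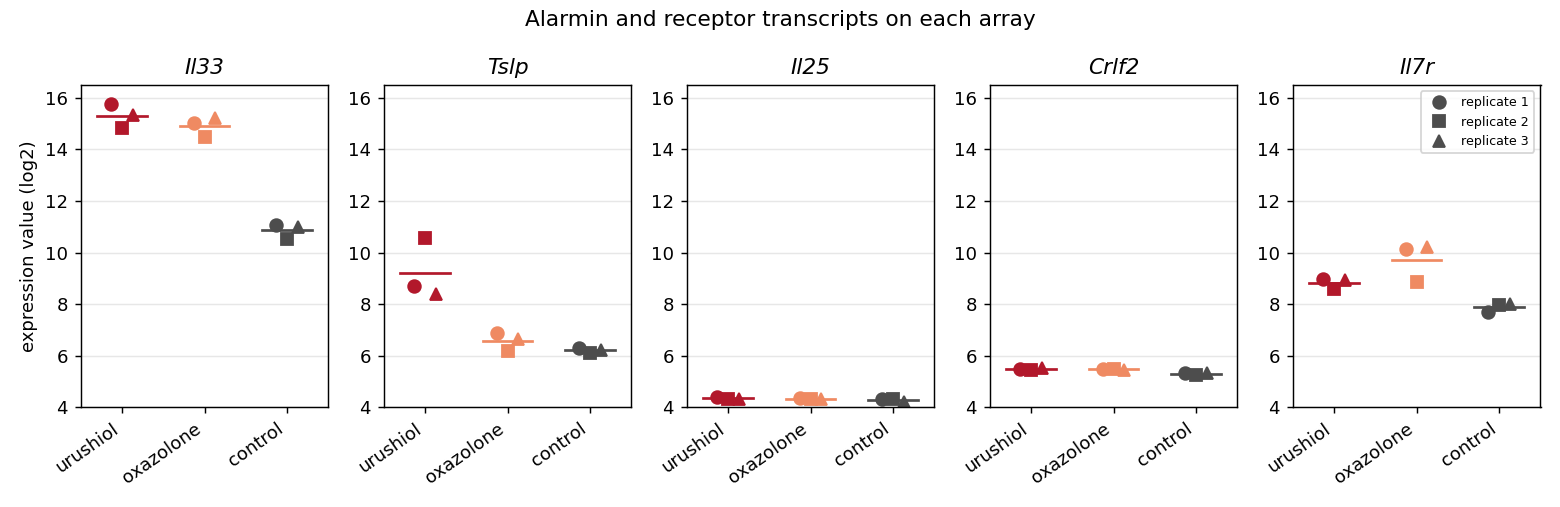
Log2 expression value of Il33, Tslp, Il25, Crlf2 and Il7r (y axis) on each array of urushiol, oxazolone and control skin. Points are arrays, with the replicate number as the symbol, and lines are group means of n = 3. Il33 lies between 14.48 and 15.77 on challenged and between 10.51 and 11.08 on control arrays, and Tslp lies between 8.41 and 10.56 on the urushiol arrays alone.

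The receptor chains had smaller differences from control than Il33 in both forms of dermatitis. Il7r, the chain shared by the TSLP and interleukin 7 receptors, was 8.98, 8.58 and 8.94 on urushiol arrays 1 to 3, 10.13, 8.85 and 10.20 on oxazolone arrays 1 to 3, and 7.70, 7.96 and 8.02 on control arrays 1 to 3. All challenged arrays exceeded all controls, and oxazolone array 2 fell within the urushiol range while arrays 1 and 3 lay above it. Oxazolone minus control was 1.83 ± 0.35 (adjusted p = 0.0165), and urushiol minus control was 0.94 ± 0.35, which did not pass (adjusted p = 0.113). Between the allergens, urushiol minus oxazolone was -0.89 ± 0.35 (95% confidence interval -1.72 to -0.07, adjusted p = 0.802).

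The Il7r calls depended on single arrays. The oxazolone call was lost without control array 1 (adjusted p = 0.062), control array 2 (0.0546), oxazolone array 1 (0.0561) or oxazolone array 3 (0.0532), and with the 2 groups alone (0.0623). Without oxazolone array 2, oxazolone minus control was 2.27 (adjusted p = 0.0017), urushiol minus control passed (0.0116), and so did urushiol minus oxazolone, at -1.33 (0.0452). Urushiol minus control also passed when the 2 groups were fitted alone (0.0312).

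Crlf2, which gives TSLP its specific receptor chain, was 5.48, 5.44 and 5.53 on the urushiol arrays, 5.49, 5.48 and 5.44 on the oxazolone arrays, and 5.34, 5.27 and 5.32 on the control arrays. The control arrays lay below all others, by steps that were small beside those of Il33. Urushiol minus control was 0.17 ± 0.04 (adjusted p = 0.0283) and oxazolone minus control 0.16 ± 0.04 (adjusted p = 0.0354), while urushiol minus oxazolone was 0.01 ± 0.04 (95% confidence interval -0.08 to 0.11, adjusted p = 1). All 9 values were below the median of their array, so, as for Il25, whether Crlf2 was measured above background is unknown. Both calls ended with quantile renormalisation (adjusted p = 0.13 for urushiol, 0.239 for oxazolone) and with each array centred on its median (0.145 and 0.238). The urushiol call was lost without control array 1 or 2 and without urushiol array 1 or 3, at adjusted p up to 0.087. The oxazolone call was lost without control array 1 or 2, any oxazolone array, or urushiol array 1 or 3, at adjusted p up to 0.104.

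Against the background of the whole series, 3 of the 5 genes were called higher in urushiol skin (Il33, Tslp and Crlf2), where 9.96% of all genes were (16.4% in either direction), and 3 in oxazolone skin (Il33, Il7r and Crlf2), where 9.63% were (16.6% in either direction). None of the 5 was called lower by limma in either comparison, beside 6.43% of all genes for urushiol and 6.92% for oxazolone, and Il25 had an unadjusted p = 0.195 and 0.327. Their median difference was 0.94 in urushiol and 0.37 in oxazolone skin, beside 0.04 and 0.06 over all genes. The arrays of the groups did not overlap for 4 of the 5 genes in urushiol against control, beside 32.9% of all genes, and for 3 in oxazolone against control, beside 32.8%. The comparisons with control share the same 3 control arrays. Between urushiol and oxazolone, limma called 0 of the 5 genes. Of the 5, 2 (Tslp and Il7r) had an unadjusted p under 0.05, beside 1772 of all 30142 genes. Any difference among the 3 groups was called for 4 genes by the moderated F test, at adjusted p = 0.000766 for Il33, 0.019 for Tslp, 0.0337 for Il7r and 0.0417 for Crlf2, where 14.1% of all genes were called, and Il25 was at 0.566. The F test call of Tslp was lost without control array 1 or 2 (adjusted p up to 0.0644), that of Il7r without any array other than control array 3 or oxazolone array 2 (up to 0.117), and that of Crlf2 without any array (up to 0.144).

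**Figure D2:**
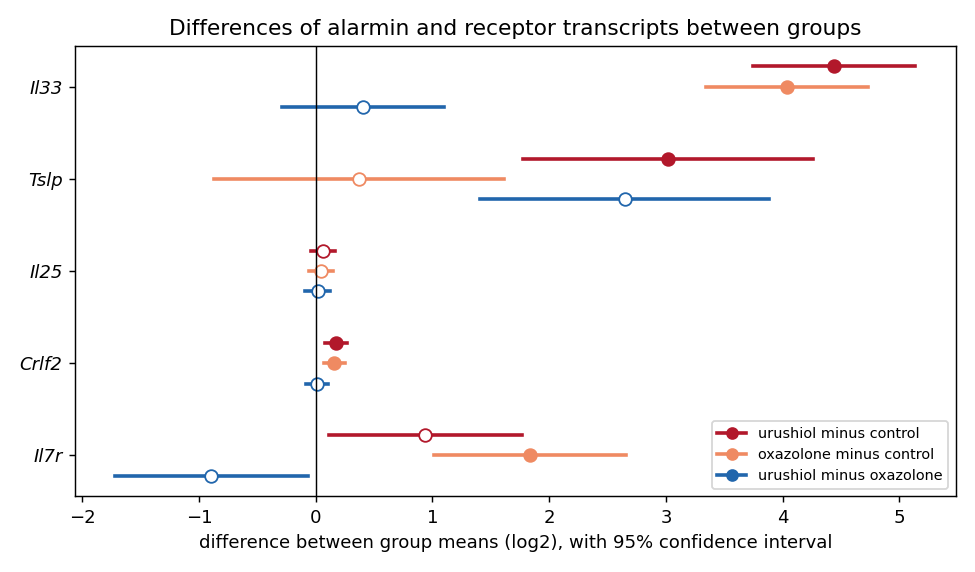
Difference between group means (x axis, log2) for the 5 genes in urushiol minus control, oxazolone minus control and urushiol minus oxazolone, with 95% confidence intervals from limma. Filled points have an adjusted p under 0.05. The Il33 intervals against control lie above 3.3 for both allergens, and the Tslp interval for oxazolone minus control spans 0.

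The genes whose profiles lay closest to each member were found by the root mean square difference over the 9 arrays between log2 values, each gene centred on its own mean. For Il33 these were Atp13a4, a P-type ATPase gene, at 0.295, Akr1b8, an aldo-keto reductase gene, at 0.323 and Glrx, the gene of glutaredoxin, at 0.33. Their differences were 4.22, 4.02 and 4.78 for urushiol minus control and 3.69, 3.46 and 3.88 for oxazolone minus control. For Tslp the closest were Ereg, the gene of the EGF receptor ligand epiregulin, at 0.53, Car2, a carbonic anhydrase gene, at 0.729 and the transmembrane serine protease gene Tmprss11a at 0.773. In urushiol skin these 3 stood 2.72, 3.40 and 3.88 above control, and in oxazolone skin 0.99, 1.89 and 1.97. For Il7r the closest were Pnp2 and Pnp, which encode purine nucleoside phosphorylases, at 0.216 and 0.228, and Cd69, a gene of early lymphocyte activation, at 0.223. Cd69 stood 0.88 above control in urushiol skin and 1.74 in oxazolone skin, Pnp2 0.51 and 1.58, and Pnp 0.59 and 1.75. Likeness says nothing about shared control, and it was not computed for Il25 and Crlf2, whose SD over the 9 arrays was under the chosen 0.5.

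Among 9 measured genes of IL-33 receptor signalling, 4 rose in urushiol skin and 3 in oxazolone skin, and none was called lower by limma. Over all genes 9.96% and 9.63% were called higher and 6.43% and 6.92% lower, shares against which this and the following lists' counts are to be read. The list median was 0.19 for urushiol and 0.18 for oxazolone. Myd88, the adaptor of the receptor, was 9.42, 9.22 and 9.54 on the urushiol arrays, 9.82, 9.31 and 9.99 on the oxazolone arrays, and 7.91, 8.01 and 8.19 on the control arrays. It rose by 1.36 ± 0.18 with urushiol and by 1.67 ± 0.18 with oxazolone (adjusted p = 0.00476 and 0.00253), and both calls held under every alternative run. Traf6, the ubiquitin ligase downstream of it, rose by 1.28 ± 0.21 with urushiol (adjusted p = 0.0106), and its difference of 0.71 ± 0.21 with oxazolone did not pass (adjusted p = 0.0627). Il1rap, the accessory chain of the IL-33 receptor, rose by 0.59 ± 0.13 and 0.60 ± 0.13 (adjusted p = 0.0268 and 0.0261), and Map3k7, the kinase TAK1, by 0.31 ± 0.07 and 0.26 ± 0.07 (adjusted p = 0.0265 and 0.0443). The Il1rap calls were lost without control array 1 or 2, for urushiol also without oxazolone array 3 or urushiol array 3, and for oxazolone also without any oxazolone array, at adjusted p up to 0.0917. The Map3k7 calls ended at adjusted p up to 0.353 and 0.794, among others with quantile renormalisation. These adaptors also serve the receptors for interleukin 1 and Toll-like receptors.

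Of 8 measured proteases known to cut IL-33, 1 rose and 1 fell with each allergen, near the 9.96% and 9.63% of all genes called higher and the 6.43% and 6.92% called lower, so the count is no result about the list. Cma1, a mast cell chymase, rose by 1.12 ± 0.20 in urushiol and by 0.997 ± 0.20 in oxazolone skin (adjusted p = 0.0135 and 0.0205). Capn1, the gene of a calpain, fell by 0.80 in urushiol and by 1.03 in oxazolone skin (adjusted p = 0.0358 and 0.0165). Cma1 was lost without urushiol array 1 or 3 for urushiol and without control array 2 or oxazolone array 1 or 3 for oxazolone, at adjusted p up to 0.0685. Capn1 was lost for oxazolone without control array 2 or oxazolone array 2 (up to 0.0607), and for urushiol without 7 of the 9 arrays taken singly, all but control array 1 and oxazolone array 2 (up to 0.117).

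Among genes that signal downstream of the TSLP and interleukin 7 receptors, Jak2 rose and the STAT5 genes fell. Whether TSLP or interleukin 7 had a part in this was not tested. Of 9 measured signalling genes, 1 rose and 2 fell in urushiol skin, and 3 rose and 2 fell in oxazolone skin, beside 16.4% and 16.6% of all genes called in either direction. Jak2, which encodes the kinase bound by CRLF2, was 12.41, 11.81 and 12.19 on the urushiol arrays, 12.96, 13.19 and 13.50 on the oxazolone arrays, and 11.26, 11.11 and 10.86 on the control arrays. The 3 groups did not overlap. Its difference was 1.06 ± 0.20 with urushiol (adjusted p = 0.0149) and 2.14 ± 0.20 with oxazolone (adjusted p = 0.00155). The urushiol call of Jak2 was lost without control array 2 or urushiol array 1 or 3, at adjusted p up to 0.0538.

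Stat5a fell by 0.53 with urushiol and by 0.37 with oxazolone (adjusted p = 0.00673 and 0.0228). Stat5b fell by 1.27 and 1.22 (adjusted p = 0.035 and 0.039). Socs3 and Socs1, which encode inhibitors of cytokine signalling, rose by 0.86 ± 0.17 and 0.59 ± 0.14 in oxazolone skin (adjusted p = 0.0187 and 0.033), and stood at 0.33 and 0.17 in urushiol skin (adjusted p = 0.235 and 0.463). Stat5a for oxazolone was lost without control array 1 or 2 or any oxazolone array, Socs3 without oxazolone array 2 or 3, and Socs1 without numbers 1 or 3 of control, 2 or 3 of oxazolone, or 3 of urushiol, at adjusted p up to 0.0947. The Stat5b calls were lost without any array other than control array 3, at adjusted p up to 0.116. Il7, the ligand that shares the Il7r chain, stood at -0.14 in urushiol and 0.05 in oxazolone skin (adjusted p = 0.383 and 0.769). Every Il7 value lay below the median of its array, so whether it was measured above background is unknown. None of these 9 genes was called between urushiol and oxazolone by limma.

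Epidermal genes known to act upstream of TSLP moved both ways. Of 9 measured, 3 rose and 2 fell in urushiol skin, and 2 rose and 2 fell in oxazolone skin, beside 16.4% and 16.6% of all genes called in either direction. Klk7, an epidermal kallikrein protease, rose by 2.14 ± 0.35 and 1.94 ± 0.35 (adjusted p = 0.0092 and 0.0133), and Trpv3, a keratinocyte heat channel, by 1.62 ± 0.40 and 1.70 ± 0.40 (adjusted p = 0.0351 and 0.0306). Spink5, an inhibitor of kallikreins, rose by 1.13 ± 0.28 in urushiol skin (adjusted p = 0.0381) and was at 0.77 in oxazolone skin (adjusted p = 0.105). Nfatc1, a calcium-responsive transcription factor, fell by 1.55 and 1.61 (adjusted p = 0.013 and 0.012), and Rxra, a retinoid receptor, fell by 0.61 and 0.91 (adjusted p = 0.0175 and 0.00465). Klk5, the kallikrein that cleaves the receptor PAR2, was 13.71, 13.54 and 13.45 on the urushiol arrays, 12.56, 11.35 and 12.68 on the oxazolone arrays, and 11.97, 12.04 and 12.72 on the control arrays. Its urushiol arrays thus lay above all others, and urushiol and oxazolone arrays did not overlap for 9.74% of all genes. F2rl1, the gene of PAR2, had no measured value here, and a link between Klk5 and Tslp was not tested. The Klk5 difference of 1.32 ± 0.37 from control just missed the threshold (adjusted p = 0.0515). Urushiol minus oxazolone, at 1.37 ± 0.37, did not pass (adjusted p = 0.484).

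Several of these calls ended when 1 array was left out. Klk7 was lost for oxazolone without control array 1 (adjusted p = 0.0507), Nfatc1 for urushiol without urushiol array 1 (0.0524), and Rxra for urushiol without control array 2 (0.0648) or urushiol array 1 (0.0573). Spink5 was lost without 6 arrays, which were numbers 1 and 2 of control, 1 and 3 of oxazolone, and 1 and 2 of urushiol, at adjusted p up to 0.122. Trpv3 was lost without 7 arrays for urushiol, all but control array 3 and oxazolone array 1, and without 5 for oxazolone, which were numbers 1 and 2 of control, 2 and 3 of oxazolone, and 3 of urushiol, at adjusted p up to 0.116 and 0.102.

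**Figure D3:**
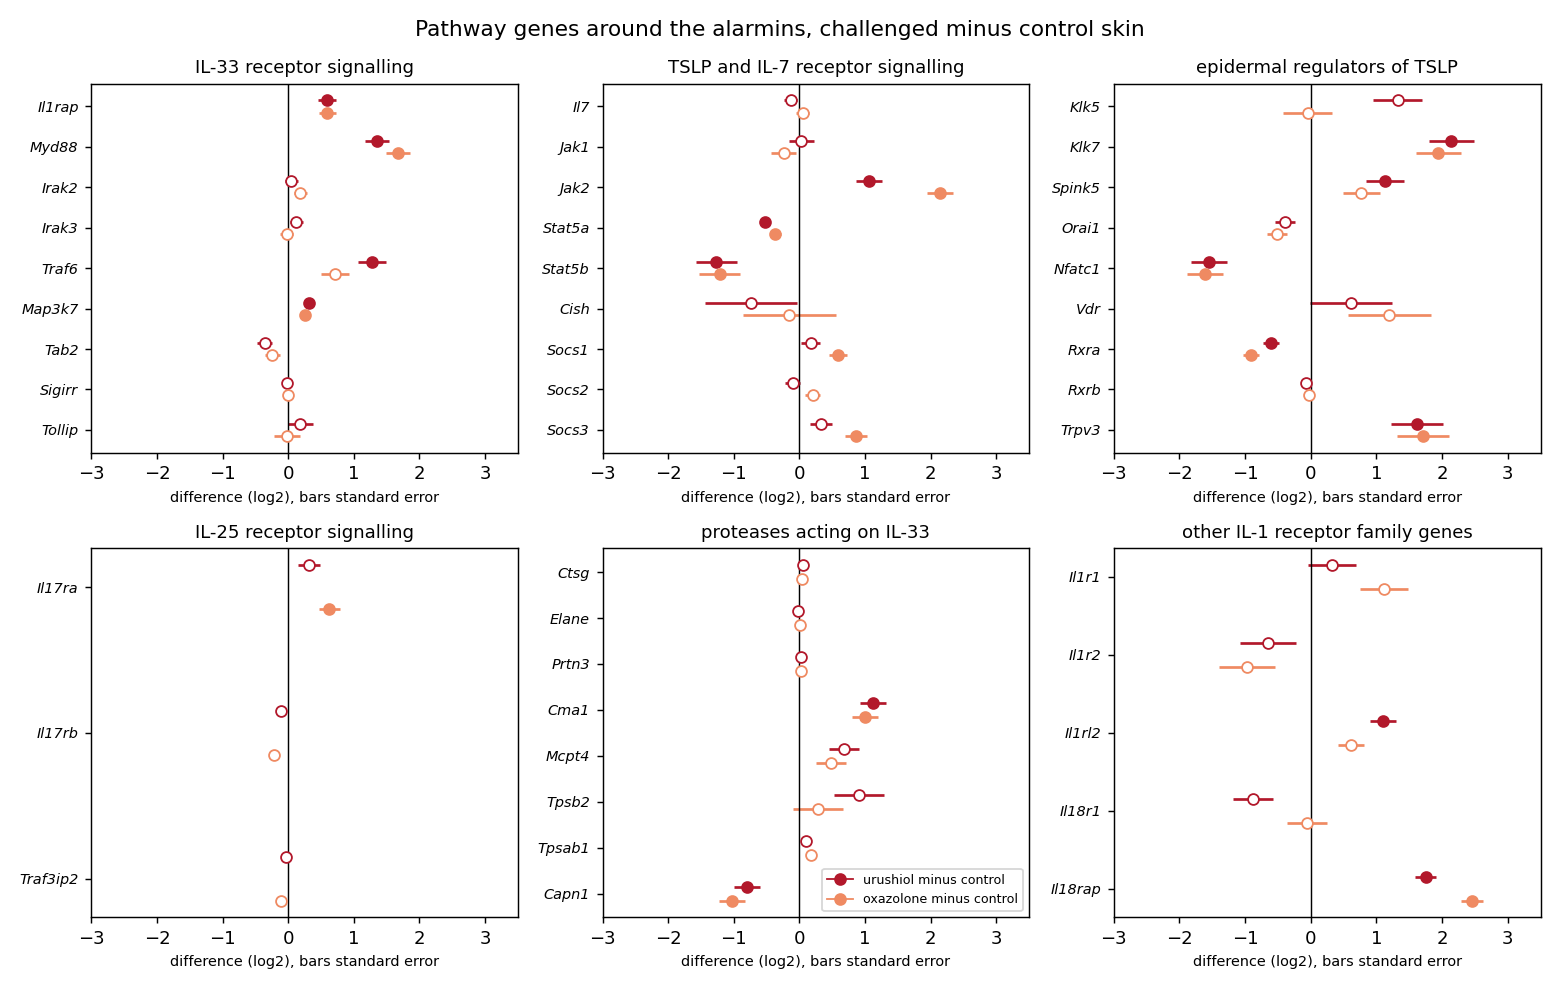
Differences from control skin (x axis, log2, bars are standard errors) of measured pathway genes in 6 lists, for urushiol minus control and oxazolone minus control. Filled points have an adjusted p under 0.05. Myd88 and Jak2 stand to the right of 0 for both allergens, and the 3 genes of IL-25 receptor signalling lie within 1 log2 unit of 0.

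Genes of the IL-25 receptor gave 1 call. Of 3 measured, 0 were called in urushiol skin by limma and 1 rose in oxazolone skin, Il17ra, by 0.63 ± 0.16 (adjusted p = 0.0424), beside 9.63% of all genes called higher, so 1 of 3 genes says little about the list. That call was lost without 8 of the 9 arrays taken singly, all but oxazolone array 2, at adjusted p up to 0.125. Il17rb, the chain specific for interleukin 25, was 5.80 on each urushiol array, 5.80, 5.58 and 5.69 on the oxazolone arrays, and 5.97, 5.80 and 5.97 on the control arrays. Its differences of -0.11 and -0.22 did not pass (adjusted p = 0.317 and 0.0691).

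As Il1rl1 had no value, 5 other receptor genes of the interleukin 1 family were examined. Il18rap, a chain of the interleukin 18 receptor, rose by 1.75 ± 0.17 with urushiol and by 2.45 ± 0.17 with oxazolone (adjusted p = 0.00147 and 0.000563). Il1rl2, the interleukin 36 receptor, rose by 1.09 ± 0.20 with urushiol (adjusted p = 0.0134, lost without control array 1 at 0.0521 or control array 2 at 0.0518) and stood at 0.61 with oxazolone (adjusted p = 0.0781). The other 3 of 5, Il1r1, Il1r2 and Il18r1, did not pass in either comparison. Of the other ligands of the interleukin 1 family 7 of 8 measured genes rose with each allergen, with list medians of 4.36 in urushiol and 3.73 in oxazolone skin. The 7 include the receptor antagonist genes Il1rn and Il1f5, at 2.04 and 2.28 with urushiol and 2.52 and 1.48 with oxazolone. The interleukin 36 genes Il1f6, Il1f8 and Il1f9 rose by 7.90 ± 0.59, 5.48 ± 0.59 and 4.48 ± 0.54 with urushiol and by 5.62 ± 0.59, 4.66 ± 0.59 and 3.73 ± 0.54 with oxazolone. Il1a, which like IL-33 is released from damaged keratinocytes, rose by 4.24 ± 0.54 and 3.73 ± 0.54, and Il1b by 7.77 ± 0.39 and 8.11 ± 0.39. Il18 did not pass, at 0.64 in urushiol and 0.19 in oxazolone skin (adjusted p = 0.14 and 0.653).

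Type 2 genes that alarmins are known to induce moved in part. Of 14 measured, 4 rose and 1 fell in urushiol skin, and 5 rose and 1 fell in oxazolone skin, beside 16.4% and 16.6% of all genes called in either direction. The receptor chain genes Il4ra and Il13ra1 rose by 3.23 ± 0.293 and 1.73 ± 0.22 with urushiol and by 4.06 ± 0.293 and 1.91 ± 0.22 with oxazolone. The arginase gene Arg1 rose by 4.58 ± 0.59 and 3.63 ± 0.59, and Il13ra2, a decoy receptor for interleukin 13, by 1.03 ± 0.23 and 1.61 ± 0.23 (the urushiol call lost without 5 arrays taken singly). The eotaxin gene Ccl11 rose by 0.94 ± 0.21 with oxazolone (adjusted p = 0.027, lost without 4 arrays taken singly). Retnla, which macrophages make under interleukin 4, fell by 3.96 and 4.35 (adjusted p = 0.0284 and 0.0213, lost without 6 and 4 arrays taken singly, control arrays 1 and 2 among them, at up to 0.0962). The type 2 cytokine genes did not pass. Il13 was 5.94, 5.29 and 5.36 on the urushiol arrays, 5.44, 5.43 and 6.22 on the oxazolone arrays, and 5.07, 4.84 and 4.73 on the control arrays, so that all challenged arrays exceeded all controls without passing (0.65 and 0.82, adjusted p = 0.136 and 0.0739). Il4 and Il5 stood at 0.45 and 0.10 with urushiol (adjusted p = 0.0585 and 0.607) and at 0.40 and 0.16 with oxazolone (adjusted p = 0.0772 and 0.356). All 9 values of Il4 and of Il5, and the control values of Il13, lay below the median of their array. As for Il25, whether these were measured above background is unknown.

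Markers of the cells that make or receive alarmins were summarised as the mean of each list on each array. Whole skin cannot separate fewer cells of a type from less RNA per cell, and the part of cell composition in the results above was not tested. Among keratinocyte sources of IL-33 and TSLP, all 5 measured stressed keratinocyte markers rose with each allergen, led by Sprr1b (9.78 ± 0.61 and 8.95 ± 0.61) and Krt16 (8.82 ± 0.75 and 8.31 ± 0.75). Their list mean was 15.09 to 16 on urushiol, 14.09 to 15.51 on oxazolone and 7.63 to 9.74 on control arrays. The basal keratinocyte mean was 13.41 to 13.63 on urushiol, 12.98 to 13.59 on oxazolone and 13.24 to 13.75 on control arrays, with Krt14 and Itga6 higher and Krt15 lower of 7 with each allergen. Without Krt15, which fell by 4.70 with urushiol and fell by 4.17 with oxazolone, the mean of the other 6 was 13.99 to 14.12 on urushiol, 13.39 to 14.09 on oxazolone and 12.96 to 13.56 on control arrays. The suprabasal mean was 14.93 to 15.47 on urushiol, 14.88 to 15.70 on oxazolone and 15.57 to 16.55 on control arrays. Of its 7 genes 4 rose and 2 fell with urushiol, and 1 rose and 2 fell with oxazolone, and Krt1 rose and Krt77 and Lor fell with both. Krt77 fell by 10.35 and 8.11, and without it the mean of the other 6 was 16.12 to 16.86 on urushiol, 15.92 to 16.30 on oxazolone and 15.25 to 16.26 on control arrays. The list's median difference was 0.55 with urushiol and 0.02 with oxazolone, the opposite sign to that of the mean over all 7.

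Fibroblasts and endothelial cells also make IL-33. The fibroblast mean was 13.43 to 14.53 on urushiol, 13.19 to 14.21 on oxazolone and 14.69 to 14.96 on control arrays, and 3 of 6 genes, Col1a1, Col1a2 and Dcn, fell with each allergen. Without control array 3 those counts were 1 and 2. The endothelial mean was 8.06 to 8.43 on urushiol, 7.37 to 8.52 on oxazolone and 7.75 to 8.54 on control arrays. Of 7 endothelial genes limma called 0 with urushiol and 1, Tek, lower with oxazolone.

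Markers of the cells known to respond to alarmins were mixed. The T cell mean was 6.16 to 6.30 on urushiol arrays, 6.79, 6.31 and 7.09 on oxazolone arrays 1 to 3, and 6.31 to 6.43 on control arrays. Oxazolone arrays 1 and 3, which had the highest Il7r values, also had the highest T cell means. The urushiol arrays had Il7r values above every control. Their T cell means lay below every control. In that comparison Cd3e stood at -1.87 and Cd3g at -1.25, but Cd4 at 0.88 and Cd5 at 0.67. The median difference of the T cell list was -0.04 with urushiol and 0.45 with oxazolone. Whether T cell numbers bear on Il7r was not tested. Without Cd8a the mean of the other 8 was 6.34 to 6.46 on urushiol, 6.42 to 6.99 on oxazolone and 6.50 to 6.65 on control arrays. Of 9 T cell genes, Cd4 and Cd5 rose and Cd3e and Cd3g fell with urushiol, and Cd8a and Cd5 rose and Cd3e fell with oxazolone. The ILC2 mean was 7.67 to 7.87 on urushiol, 7.64 to 8.13 on oxazolone and 7.19 to 7.33 on control arrays. Of 12 ILC2 genes Arg1, which macrophages also express, rose with urushiol, and Arg1, Icos and Il2ra rose and Rora fell with oxazolone, beside 9.96% and 9.63% of all genes called higher. Without Arg1 the mean of the other 11 was 7.26 to 7.36 on urushiol, 7.38 to 7.77 on oxazolone and 7.10 to 7.26 on control arrays. Those 11 still include Icos and Il2ra, which like Cd8a were highest on oxazolone array 3. Klrg1, Nmur1 and Il9r stood at -0.04, 0.04 and 0.04 with urushiol and at 0.07, 0.07 and 0.02 with oxazolone. The ILC2 list's median difference was 0.04 with urushiol and 0.07 with oxazolone.

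The mast cell mean was 8.81 to 9.31 on urushiol, 8.73 to 9.02 on oxazolone and 8.11 to 8.26 on control arrays. Without Hdc the mean of the other 9 was 8.55 to 9.10 on urushiol, 8.47 to 8.71 on oxazolone and 8.29 to 8.54 on control arrays, so oxazolone and control overlapped. Those 9 still include Mrgprb2, which fell with both allergens. The list's median difference over all 10 was 0.79 with urushiol and 0.63 with oxazolone. Of 10 mast cell genes 4 rose and 1 fell with urushiol, and 3 rose and 1 fell with oxazolone. The histamine-forming enzyme gene Hdc rose by 5.17 ± 0.38 and 4.98 ± 0.38, Cpa3, a granule carboxypeptidase, rose by 1.45 ± 0.20 and 0.90 ± 0.20, and Mrgprb2, a receptor on connective tissue mast cells, fell by 2.30 and 3.02. The basophil and eosinophil mean was 5.03 to 5.36 on urushiol, 4.99 to 5.20 on oxazolone and 4.66 to 4.79 on control arrays, and Ccr3 and Mcpt8 rose of 7 genes with each allergen. Every mean of this list, and every control value of Ccr3 and Mcpt8, lay below the median of all clusters on its array. As for Il25, whether such values were above background is unknown. The dendritic cell mean was 6.77 to 6.94 on urushiol, 6.94 to 6.998 on oxazolone and 6.75 to 6.85 on control arrays. Of 10 dendritic cell genes Cd207 fell with both allergens and Cd86 rose with oxazolone.

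Of 9 monocyte and macrophage genes 1, Mrc1, rose with urushiol, and limma called 0 with oxazolone, with list means of 11.06 to 11.69 on urushiol, 10.89 to 11.75 on oxazolone and 10.68 to 11.08 on control arrays. All 7 neutrophil genes rose with each allergen, and their mean was 11.28 to 12.39 on urushiol, 11.09 to 11.84 on oxazolone and 6.30 to 6.79 on control arrays. Calls lost without single arrays were common in these lists and included Cd3g and Mrc1 for urushiol (7 arrays each), Cd8a for oxazolone (8 arrays), Tek (7 arrays) and Col1a1 (6 arrays for urushiol and 7 for oxazolone).

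Control array 3 stood apart from control arrays 1 and 2 in hair follicle, melanocyte and muscle transcripts. It was also the highest control for the stressed keratinocyte mean, at 9.74 against 7.63 and 8.05. For the other interleukin 1 family ligands its mean was 10.18 against 9.04 and 9.04. Without it the genes called higher in these lists still numbered 5 and 7 with each allergen. The hair follicle mean was 10.85 to 11.50 on urushiol and 11.38 to 13.82 on oxazolone arrays, against 5.93, 6.11 and 11.89 on control arrays 1 to 3. The skeletal muscle mean was 11.37 to 12.24 on urushiol and 7.26 to 9.43 on oxazolone arrays, against 17.37, 17.34 and 15.43 on control arrays 1 to 3. Of 10 hair follicle genes 1, Krt84, rose with each allergen, and 7 and 9 did so without control array 3. Of 6 melanocyte genes limma called 0 with either allergen, and 2 and 4 were called higher without that array, with means of 7.74 to 8.67 on urushiol, 8.74 to 11.22 on oxazolone and 6.46 to 9.34 on control arrays. Of 8 muscle genes 7 fell with urushiol and 8 with oxazolone, and of 7 adipocyte genes 5 and 6 fell. No call against control among the 5 alarmin and receptor genes was lost without control array 3 (the F test call of Crlf2 was, at adjusted p = 0.0562), whose Il33, Tslp and Crlf2 values lay between those of the other controls.

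**Figure D4:**
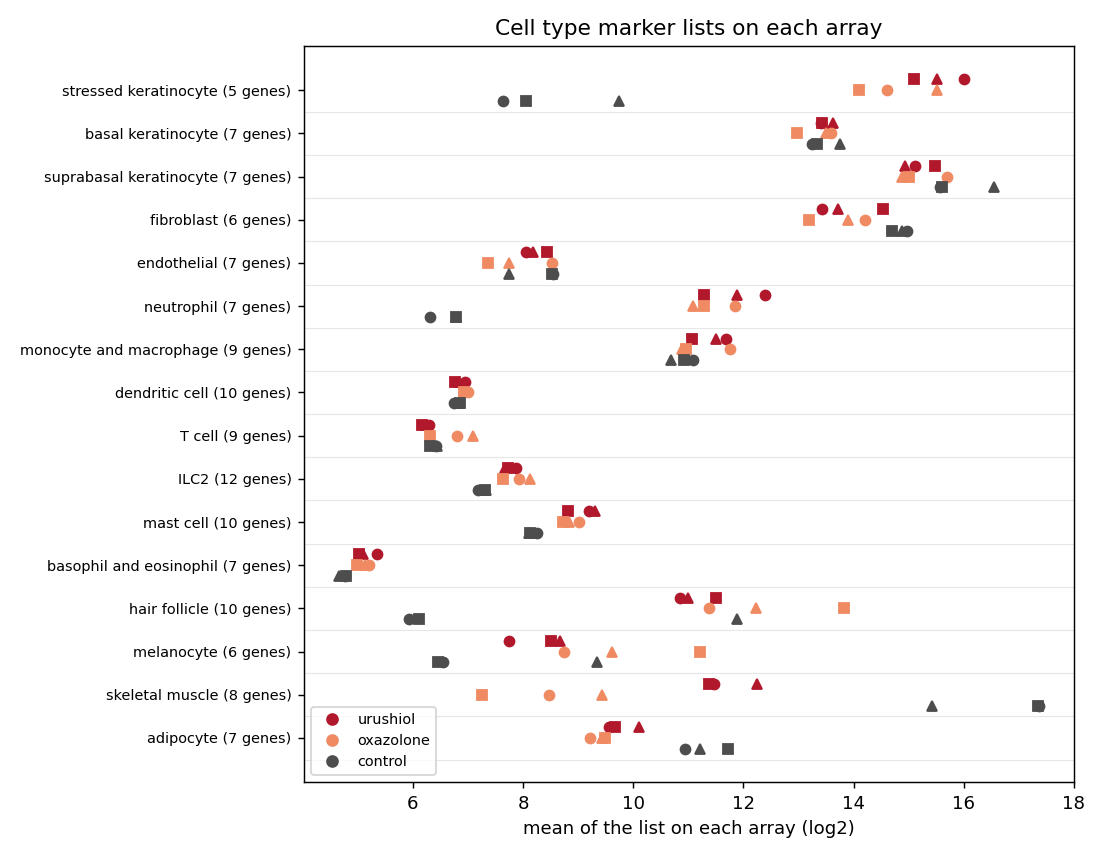
Mean log2 value of each cell type marker list (x axis) on each array of urushiol, oxazolone and control skin, with the replicate number as the symbol. Stressed keratinocyte and neutrophil markers separate challenged from control arrays, T cell means are highest on oxazolone arrays 1 and 3, and 1 control array lies apart from the other controls in hair follicle and muscle markers.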

How the data were processed

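Total RNA of neck skin was measured on 9 Affymetrix mouse arrays, 3 per group, grouped by sample title. The authors deposited 1 log2 value for each array and cluster of transcripts. Expression Console 1.4 of Affymetrix, RMA and Transcriptome Analysis Console are named, without roles, in the submitters' processing notes. The values span 2.20 to 19.93. A scanner's own log2 limit is 16, and no source used here explains higher values, so a difference may not be the log2 of an RNA ratio. The build was not given in the sources used here.

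Leaving out 6732 array controls of 72688 features left 65956 clusters. The annotation paired 30604 with 1 symbol, 2146 with several and 33206 with none, and 827 symbols were updated by gene ID to RefSeq GRCm38. A gene took the value of the cluster whose mean over 9 arrays was highest.

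Comparisons used lmFit and eBayes of limma 3.58.1 (R 4.3.3; 1 fit of all 9 arrays, no block), checked on simulated data. The arrays carry no depth, and their number limits the precision (median standard error 0.113). Members, 8 pathway lists and 16 marker lists (206 symbols, 185 measured) were chosen with earlier results of these data known. The text names every member, from each pathway list every called gene where the list has 5 or fewer and otherwise the 4 called genes with the greatest differences plus any that moved against the rest, and the 3 genes most like each member with an SD of at least 0.5. Genes that did not pass, Ccl11, Il1a, Il1rn, Il1f5 and the marker genes were named after their values were seen. Nothing beyond the labels says that replicates came from separate mice.

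Deviations from group means correlated at 0.124 to 0.201 between same-numbered urushiol and oxazolone arrays, all above 0.1, which meets the rule for taking the numbers as pairs, on the data and not on any label. The printed urushiol minus oxazolone values come from the fit without the block, and values with the block stand beside those it bears on. With control arrays the same-numbered correlations ran from -0.232 to 0.337, so controls were not paired. Means of marker lists without the gene of greatest difference were added after seeing the data. Alternatives were leaving out each array, a replicate block, 2 groups alone, leaving out dim genes, averaging a gene's clusters, testing every cluster, quantile renormalisation, median centring, trended and robust variances, and array weights.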

Additional observations from a re-analysis of the deposited data

How the results depend on the processing

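Il33 kept its calls against control under all 19 alternatives, Il25 passed under none, and the members' directions in called comparisons never turned. Crlf2, urushiol minus control, was 0.15 to 0.20 without 1 array, 0.17 with only the 2 groups compared (adjusted p = 0.063), 0.12 with quantile renormalisation and 0.12 with median centring. Crlf2, oxazolone minus control, was 0.14 to 0.17 without 1 array, 0.16 with the replicate block over 9 arrays (adjusted p = 0.059), 0.16 with 2 groups alone (0.0731), 0.0906 with quantile renormalisation, 0.0933 with median centring and 0.15 with array weights (0.0501). Il7r, oxazolone minus control, was 1.60 to 2.27 without 1 array and 1.83 with 2 groups alone, urushiol minus control 0.84 to 1.07 and 0.94, and urushiol minus oxazolone -1.33 to -0.66. Tslp, urushiol minus control, was 3.02 with 2 groups alone. For the moderated F test the same alternatives were added after seeing the data. Its adjusted p without 1 array was 0.00571 to 0.0644 for Tslp, 0.0029 to 0.117 for Il7r and 0.0562 to 0.144 for Crlf2, and for Crlf2 it was 0.0751 with the replicate block over 9 arrays, 0.228 with quantile renormalisation, 0.251 with median centring and 0.0519 with robust variance. It called 1509 to 7182 of all genes without 1 array and 7757 with array weights. The replicate block, over 9 arrays or over urushiol and oxazolone arrays alone, changed no other call of a member, with adjusted p = 0.393 and 0.505 for Tslp between the allergens.

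Counts over all genes moved more. All 9 arrays gave 3003 higher and 1939 lower for urushiol minus control, 2904 and 2085 for oxazolone minus control, and 2 and 3 for urushiol minus oxazolone. Without 1 array, urushiol minus control had 1326 to 4566 genes higher and 863 to 3089 lower, oxazolone minus control 1102 to 4749 and 974 to 3270, and urushiol minus oxazolone 0 to 7 and 0 to 91. With 2 groups alone the counts were 1449 and 875, 1262 and 936, and 2 and 0, and with array weights 4932 and 3203, 4557 and 3131, and 5 and 49. Quantile renormalisation gave 2297 higher and 2341 lower for urushiol and 2127 and 2937 for oxazolone, and median centring 2700 and 2288, and 2489 and 2606, so the split between higher and lower calls moved with the scaling. For urushiol minus oxazolone limma gave 0 and 0 with either replicate block, median centring, trended or robust variance, and 4 and 31 with the filter on dim genes, while 1330 to 2698 genes had an unadjusted p under 0.05. Of 170 calls of other list and likeness genes, 105 were kept under every alternative run. Dsg1a, oxazolone minus control, was 0.02 and not called, and turned to -0.48, called, after quantile renormalisation. Control arrays 1 and 2 and urushiol array 1 gave the lowest counts against control and control array 3 the highest when left out, and the 91 lower calls came without oxazolone array 2. The causes were not tested.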
